A study of Mus musculus with 2 samples.

Results

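The 10 genes described here are TCF/LEF transcription factors of the Wnt pathway and genes known as targets of beta-catenin. They were taken from the deposited gene table by symbol: Lef1, Tcf7l1, Tcf7l2, Sp5, Sp8, Myc, Mycn, Nkd1, Nkd2 and Znrf3. All 10 had a line among the 16103 genes of the table, and all 10 were among the 13988 genes whose RPKM, averaged over both libraries, reached 1. RPKM is the read number per length of gene and per counted reads of the library. The study compared a TRPM2-KD with a Control library, both labelled as warm, from the outbred mouse stock ICR. TRPM2 is a cation channel that warmth can open. For TRPM2-KD, plasmids for a Trpm2 knockdown were electroporated in utero into the cortex on embryonic day 13, and control plasmids for Control. GFP-positive cells, named as neural progenitors in the labels, were sorted on embryonic day 15 in both. The TRPM2-KD column names the single construct TRPM2-sh1. The sources used here do not say whether embryos were pooled, which temperature was used or how many cells were taken.

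In canonical Wnt signalling, beta-catenin escapes destruction, enters the nucleus and binds TCF/LEF factors that already sit on DNA through their HMG box. Without beta-catenin these factors hold target genes down with Groucho/TLE corepressors, and with it they turn them on. Several targets feed back on the pathway, and in the developing cortex the pathway is known for favouring progenitor expansion and medial patterning.

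Each group had a single library, of 20791236 counted reads for TRPM2-KD and 26209192 for Control. No difference below therefore has a replicate check, and none is a test of the conditions. Intervals are exact 95% intervals of the reads and cover counting error only. Reads copied by PCR are not independent molecules, so the intervals can be too narrow even for that. Trpm2 itself had 155 reads in TRPM2-KD and 241 in Control, a ratio of 0.811 (0.658 to 0.996). At 0.604 RPKM in TRPM2-KD and 0.745 RPKM in Control, it lay below the filter of an average of 1 RPKM. Its interval ended close to 1, so these reads give no firm measure of the knockdown. The sorted cells held markers of several cell types. The 11 radial glia markers all passed the filter, with a summed level of 626 RPKM in TRPM2-KD and 591 RPKM in Control. Of these markers 7 were above 1 and 4 below, with a median log2 ratio of 0.02. Fabp7, a fatty acid binding protein gene, was at 303 RPKM in TRPM2-KD and 259 RPKM in Control, and the other 10 markers summed to 323 RPKM in TRPM2-KD and 332 RPKM in Control. The 10 neuron markers summed to 1782 RPKM in TRPM2-KD and 1955 RPKM in Control, and the 8 markers of intermediate progenitors to 338 RPKM in TRPM2-KD and 348 RPKM in Control. Of the 7 measured erythroid markers 3 were above 1 and 4 below. The globin gene Hbb-bt had 166 reads in TRPM2-KD and 3 in Control, and the other 6 summed to 76.9 RPKM in TRPM2-KD and 75.8 RPKM in Control. In bulk RNA, fewer cells of a type and less RNA per cell cannot be told apart.

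The DNA before the start sites was searched for 3 short forms of the TCF/LEF recognition sequence, because these letters are what the factors are known to bind. The search took both strands of RefSeq windows from 250 bases before to 50 bases after a start (build GRCm38.p6). Of the 10 genes, 8 had a window (all but Myc and Znrf3), 14 windows in all, and 4 genes had a match in 1 window each. These were Tcf7l2, Sp5, Sp8 and Mycn. Of all 32851 windows, 5.14% held the form CTTTGAA. The form CTTTGAT was present in 3.73% of the windows and the form CTTTGTT in 5.85%. At least 1 of the 3 forms was found in 13.9% of the windows, beside 4 of the 14 windows here. That share is per window and not per gene, and windows of a gene can overlap, as for Lef1. The forms differ in their last bases only, so no pair of them can match at the same place on the same strand. Each match is given with 10 bases on either side, on the strand of the gene, and capitals mark the match. A form on the other strand reads as its reverse complement. A match is a description of the letters and not a measured binding site.
Sp5, chr2:70474691-70474717, plus strand: tcctagagatAACAAAGacactttgtc
Sp5, chr2:70474809-70474835, plus strand: gcaaggccccCTTTGATcaggaaaatc
Sp8, chr12:118847172-118847198, plus strand: tccgcggcacTTCAAAGccggagaggg
Mycn, chr12:12941834-12941860, minus strand: tcccccgagcTTCAAAGcgcagccagt
Tcf7l2, chr19:55895297-55895323, plus strand: aaatatcaggCTTTGTTcttttgattg

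Of the 8 genes with a window, only Sp5 had a pair of matches in one. The first lies 222 bases before the start and the second 104 bases before it. The 250 bases before the Sp5 start are therefore shown whole, with both matches in capitals.
Sp5, chr2:70474673-70474922, plus strand: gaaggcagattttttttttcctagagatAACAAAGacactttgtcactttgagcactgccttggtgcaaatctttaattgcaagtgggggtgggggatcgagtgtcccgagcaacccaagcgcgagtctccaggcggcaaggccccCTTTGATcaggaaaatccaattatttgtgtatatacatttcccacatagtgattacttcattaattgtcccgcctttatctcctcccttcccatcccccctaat
The matches of Mycn and Tcf7l2 begin 14 bases before the start of their window's transcript, and that of Sp8 begins 51 bases before. For Sp8 and Tcf7l2 the match belongs to the window of a start that is not the most upstream. The 4 windows of Lef1 and the windows of Tcf7l1, Nkd1 and Nkd2 held none of the 3 forms.

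The 10 genes went both ways between the libraries, 5 with a ratio above 1 and 5 below, where 49.3% of all genes were above. Tcf7l1, Tcf7l2, Sp5, Nkd1 and Nkd2 were above 1 in TRPM2-KD over Control, and Lef1, Sp8, Myc, Mycn and Znrf3 were below. Their median log2 ratio was -0.01, beside -0.004 over all 13988 genes. The log2 ratios ran between -0.66 for Myc and 0.58 for Nkd2. At a fold of 1.2, 4 of the 10 were higher and 4 were lower, where 17.4% of all genes were higher and 16.5% lower. That makes 8 of 10 past this fold either way, where 33.9% of all genes were. At a fold of 1.5, Myc alone was lower and none was higher, where 5.03% of all genes were lower and 6.23% higher, 11.3% in all. Sp5 at 1.202 and Nkd1 at 1.205 lay just past the 1.2-fold limit, as did Znrf3 at 0.832. Tcf7l1 at 1.145 and Mycn at 0.856 fell just short of it, and Nkd2 at 1.495 just short of the 1.5-fold limit. The counting interval lay above 1 for 3 genes and below 1 for 5, against 28% and 28.4% of all genes. Off 1 in either direction were 8 of the 10 and 56.5% of all genes. The intervals of Tcf7l1 and Sp5 spanned 1, so at this depth no difference was detectable for them. The genes were chosen with results of these libraries known, so these counts describe the 10 genes and support nothing further.

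**Figure D1:**
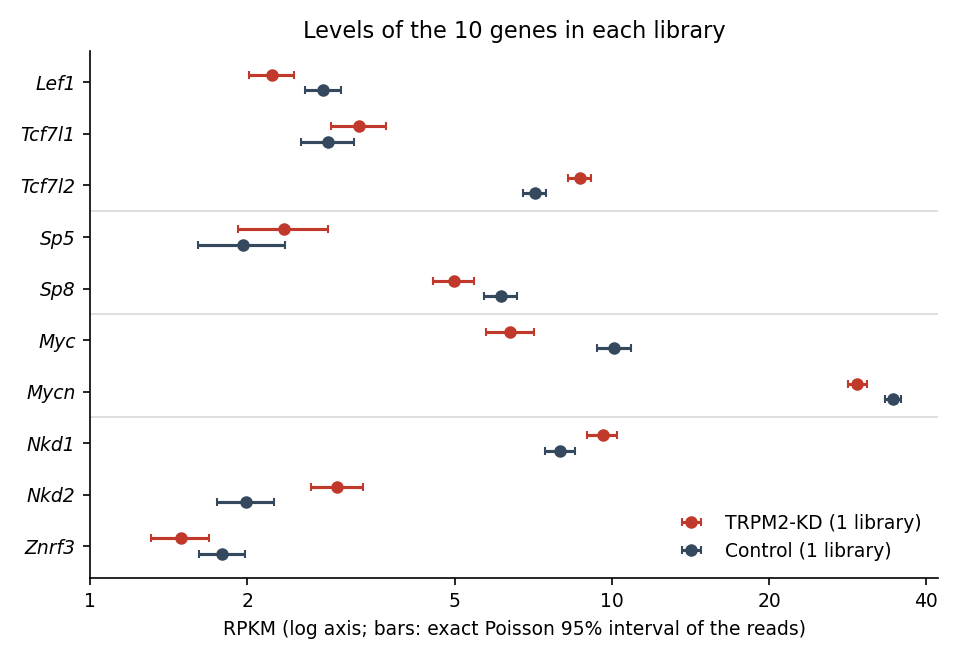
Level of each of the 10 genes in RPKM on a log axis, in TRPM2-KD (red) and Control (dark), with 1 library per group and bars for the exact Poisson 95% interval of the reads. Mycn had the highest level in both libraries, and Myc stood in the fourth place in TRPM2-KD and the second in Control.

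The order of levels per length differed between the libraries in a few places. Mycn was the most abundant in both, at 29.5 RPKM in TRPM2-KD and 34.5 RPKM in Control, and Znrf3 the least, at 1.49 RPKM in TRPM2-KD and 1.79 RPKM in Control. In TRPM2-KD the order below Mycn was Nkd1, Tcf7l2, Myc, Sp8, Tcf7l1, Nkd2, Sp5, Lef1 and Znrf3. In Control it was Myc, Nkd1, Tcf7l2, Sp8, Tcf7l1, Lef1, Nkd2, Sp5 and Znrf3. The counting intervals of these neighbours overlapped in TRPM2-KD for Nkd1 and Tcf7l2, Tcf7l1 and Nkd2, Nkd2 and Sp5, and Sp5 and Lef1. In Control they overlapped for Nkd1 and Tcf7l2, Tcf7l1 and Lef1, Nkd2 and Sp5, and Sp5 and Znrf3.

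Among the TCF/LEF factors, Lef1 was lower in TRPM2-KD while Tcf7l2 was higher. Lef1 (ENSMUSG00000027985.8), a factor known mainly as an activator with beta-catenin, had 401 reads (2.23 RPKM) in TRPM2-KD and 634 reads (2.79 RPKM) in Control. Its ratio was 0.797 (0.702 to 0.905), and 12.5% of all genes had a lower ratio. Tcf7l2 (ENSMUSG00000024985.12), which can activate or repress, was the most abundant of the family. It had 1578 reads (8.67 RPKM) in TRPM2-KD and 1629 reads (7.10 RPKM) in Control, a ratio of 1.22 (1.14 to 1.31). Tcf7l1 (ENSMUSG00000055799.7), known mainly as a repressor, had 267 reads (3.27 RPKM) in TRPM2-KD and 294 reads (2.86 RPKM) in Control. Its ratio of 1.14 had an interval from 0.966 to 1.36. Tcf7, the fourth gene of the family, which is not among the 10, was at 3.73 RPKM in TRPM2-KD and 3.11 RPKM in Control, a ratio of 1.2 (0.987 to 1.46). Of these 4 genes, Lef1 alone had a ratio below 1.

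The make-up of the family's mRNA was compared within each library, where the scaling of the library cancels. Lef1 made up 12.4% of the summed RPKM of the 4 genes in TRPM2-KD and 17.6% in Control. Tcf7l2 made up 48.5% in TRPM2-KD and 44.8% in Control. The sum of the 4 genes was 17.9 RPKM in TRPM2-KD and 15.9 RPKM in Control. Tcf7l2 over Lef1 was 3.90 in TRPM2-KD and 2.54 in Control, and the quotient of these ratios was 1.53 (exact interval 1.32 to 1.77). For Tcf7l1 over Lef1 that quotient was 1.44 (1.16 to 1.78), and for Tcf7 over Lef1 it was 1.51 (1.19 to 1.91). For Tcf7l2 over Tcf7l1 it was 1.07 with an interval from 0.888 to 1.28, so no shift between these 2 genes was detectable at this depth. These and the further pairs below, 9 in all, were chosen after the values were seen. Counts per gene pool all isoforms, so forms of Lef1 or Tcf7l2 with and without the beta-catenin binding part are not separated.

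**Figure D2:**
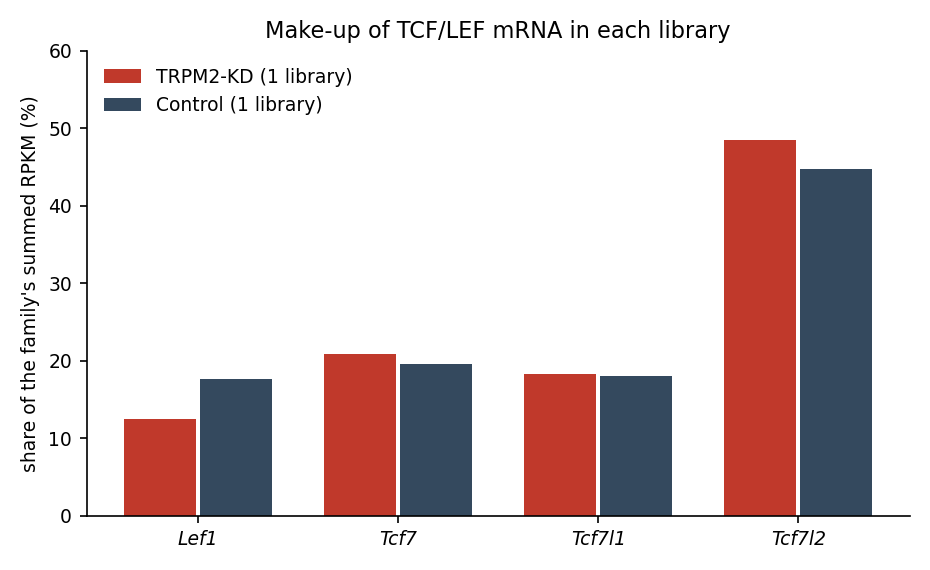
Share of each TCF/LEF gene in the summed RPKM of the 4 genes, in percent, with TRPM2-KD (red) left of Control (dark), 1 library each. Lef1 held 12.4% in TRPM2-KD and 17.6% in Control, and the other 3 genes held a larger share in TRPM2-KD.

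Lef1 and Tcf7l2 are also known from other cells and regions near the cortex, so markers of these were read beside them. The 11 endothelial markers, without Lef1, had 8 ratios below 1 and summed to 122 RPKM in TRPM2-KD and 150 RPKM in Control. Of the 11 measured markers of the cortical hem and medial pallium 7 were below 1, with sums of 97.4 RPKM in TRPM2-KD and 105 RPKM in Control. Of the 8 measured thalamus markers 7 were above 1, with sums of 80.8 RPKM in TRPM2-KD and 75.7 RPKM in Control. The last 2 lists share Lhx2, at 45.4 RPKM in TRPM2-KD and 45.7 RPKM in Control, and Lhx9, at 6.66 RPKM in TRPM2-KD and 4.15 RPKM in Control. Without these the hem and medial pallium markers summed to 45.4 RPKM in TRPM2-KD and 54.7 RPKM in Control, and the thalamus markers to 28.8 RPKM in TRPM2-KD and 25.8 RPKM in Control. Most of the gap in the hem and medial pallium sum came from Emx1, at 18.1 RPKM in TRPM2-KD and 25.9 RPKM in Control. Emx1 marks the dorsal pallium more widely. Rspo3 was at 12.6 RPKM in TRPM2-KD and 13.1 RPKM in Control, and Wnt5a was higher, at 4.44 RPKM in TRPM2-KD and 3.43 RPKM in Control. None of the markers of these 3 lists was at 0 in a library, and those past the filter were at 0.962 RPKM or more. Their part in the values of Lef1 and Tcf7l2 was not tested. The exons of Lef1 overlap those of the antisense gene Gm43352 over 1208 bases, and those of Tcf7l1 overlap those of Gm15401 over 179 bases, in GENCODE M21. The sources used here do not say whether strand was used in counting, so reads of the partners cannot be told apart.

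The Sp factors, zinc finger proteins that bind GC-rich DNA, differed from each other. Sp5, a target induced by Wnt signalling in many tissues, had the fewest reads of the 10 genes. Sp5 (ENSMUSG00000075304.2) had 103 reads (2.36 RPKM) in TRPM2-KD and 108 reads (1.96 RPKM) in Control, a ratio of 1.2 with an interval from 0.909 to 1.59. Sp8 (ENSMUSG00000048562.6), which patterns the forebrain and marks a group of interneuron precursors, was lower in TRPM2-KD. It had 464 reads (4.98 RPKM) in TRPM2-KD and 719 reads (6.12 RPKM) in Control, a ratio of 0.814 (0.722 to 0.915). Sp5 over Sp8 was 0.474 in TRPM2-KD and 0.320 in Control, and the quotient of these was 1.48 (1.09 to 2.0). Of the 14 markers of interneurons and the ganglionic eminence 9 had ratios below 1, all 9 with intervals below 1. The other 5 were above 1, 3 of them with intervals above 1. Of all genes, 28.4% had an interval below 1 and 28% above. At 1.2-fold 2 of the 14 markers were lower and 1 higher, where 16.5% and 17.4% of all genes were. The 14 markers summed to 307 RPKM in TRPM2-KD and 341 RPKM in Control. None was at 0, and their part in the value of Sp8 was not tested.

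Other Sp and Klf factors were mostly near or above 1. Of 14 listed genes 11 were measured, 7 above 1 and 4 below, with a median log2 ratio of 0.12 against -0.004 for all genes. At 1.2-fold 3 were higher and 1 lower, where 17.4% and 16.5% of all genes were. Klf3, a repressor of the Klf group, was at 7.89 RPKM in TRPM2-KD and 5.44 RPKM in Control, a ratio of 1.45 (1.25 to 1.68). Klf12 was at a ratio of 1.33 (1.10 to 1.62) and Sp4, a factor enriched in neurons, at 1.27 (1.17 to 1.37). Sp2 was at 3.88 RPKM in TRPM2-KD and 5.32 RPKM in Control, a ratio of 0.729 (0.627 to 0.848). Sp9, the relative of Sp8 in interneuron precursors, was at 1.08 (1.005 to 1.17), on the other side of 1 from Sp8.

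Both Myc genes were lower in TRPM2-KD, Myc by more than Mycn. They encode basic helix-loop-helix factors that drive growth and division, and Mycn is the form known for expanding neural progenitors. Myc (ENSMUSG00000022346.8) had 361 reads (6.38 RPKM) in TRPM2-KD and 719 reads (10.1 RPKM) in Control. Its ratio was 0.633 (0.556 to 0.719), and 566 of the 13988 genes, 4.05%, had a lower ratio. Mycn (ENSMUSG00000037169.8) had 2024 reads (29.5 RPKM) in TRPM2-KD and 2982 reads (34.5 RPKM) in Control, a ratio of 0.856 (0.808 to 0.906). Mycn over Myc was 4.63 in TRPM2-KD and 3.42 in Control, and the quotient of these was 1.35 (1.17 to 1.56). Of the 10 meningeal markers 6 were below 1, with sums of 79.0 RPKM in TRPM2-KD and 92.9 RPKM in Control. Of the 6 measured choroid plexus markers 5 were below 1, with sums of 302 RPKM in TRPM2-KD and 429 RPKM in Control. Of the 13 measured microglia markers 12 were above 1, with sums of 278 RPKM in TRPM2-KD and 186 RPKM in Control. None of the measured markers of these 3 lists was at 0. The part of these cells in the values of the Myc genes was not tested.

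**Figure D3:**
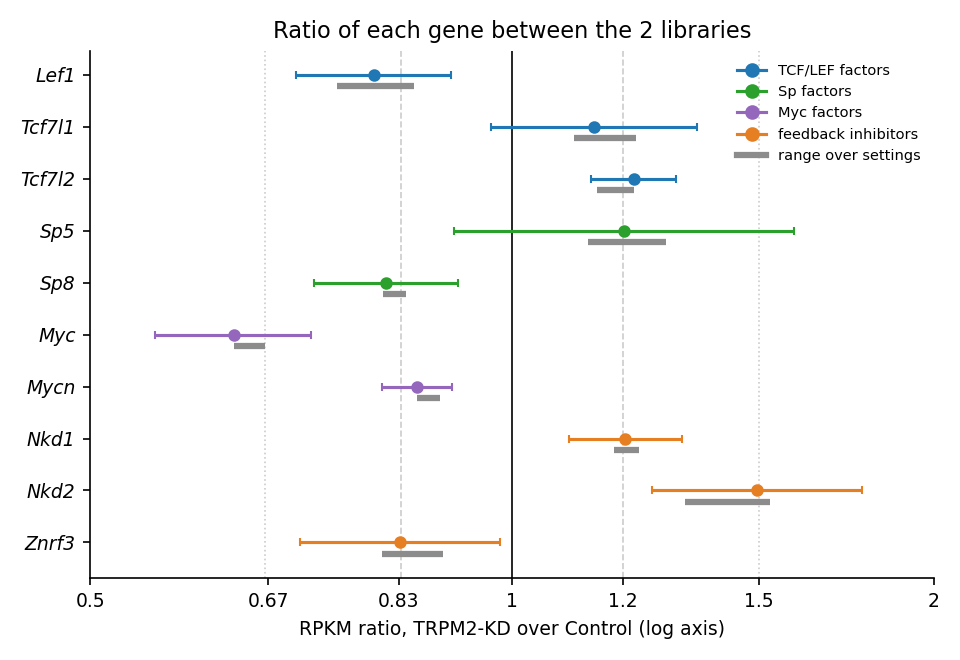
RPKM ratio of each gene, TRPM2-KD over Control, on a log axis, with points and bars for the ratio and its exact 95% counting interval and grey bars for the range over the processing alternatives. Dashed and dotted lines mark 1.2-fold and 1.5-fold. Myc at 0.633 lies farthest below 1 and Nkd2 at 1.495 farthest above.

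The partners of Myc were split. Of 12 genes 5 were above 1 and 7 below, with a median log2 ratio of -0.04. Mxd3, an antagonist that competes for Max, was at 5.17 RPKM in TRPM2-KD and 8.0 RPKM in Control, a ratio of 0.646 (0.548 to 0.761). Mga, a Max partner of repressive complexes, was at 10.6 RPKM in TRPM2-KD and 7.90 RPKM in Control, a ratio of 1.34 (1.28 to 1.41). Max itself, the obligate partner, was at 1.14 (1.06 to 1.22), and Mlx at 0.848 (0.765 to 0.940).

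Genes known as Myc targets lay mostly a little below 1. Of 25 genes 18 were below 1 and 7 above, with 12 counting intervals below 1 and 3 above, and a median log2 ratio of -0.07. Of all genes tested, 28.4% had an interval below 1 and 28% above. At 1.2-fold 2 were lower and 2 higher, where 16.5% and 17.4% of all genes were. The lower ones both serve ribosome production. Polr1b, a subunit of RNA polymerase I, was at a ratio of 0.703 (0.641 to 0.770), and Bop1, a factor of large subunit maturation, at 0.703 (0.650 to 0.761). The higher ones do so too, with Rrs1 at 1.31 (1.15 to 1.48) and the rRNA methyltransferase gene Fbl at 1.26 (1.18 to 1.34).

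The feedback inhibitors also went both ways, with the Nkd genes higher and Znrf3 lower in TRPM2-KD. Nkd1 and Nkd2 bind Dishevelled and dampen the signal inside the cell. Nkd1 (ENSMUSG00000031661.5) had 890 reads (9.59 RPKM) in TRPM2-KD and 931 reads (7.96 RPKM) in Control, a ratio of 1.21 (1.10 to 1.32). Nkd2 (ENSMUSG00000021567.8) had 293 reads (2.98 RPKM) in TRPM2-KD and 247 reads (1.99 RPKM) in Control. Its ratio was 1.495 (1.26 to 1.78), and 883 of the 13988 genes, 6.31%, had a higher ratio. Znrf3 (ENSMUSG00000041961.8) encodes a membrane ubiquitin ligase that removes Frizzled receptors from the cell surface. It had 245 reads (1.49 RPKM) in TRPM2-KD and 371 reads (1.79 RPKM) in Control, a ratio of 0.832 (0.706 to 0.981).

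Within a library, both Nkd genes stood higher against Znrf3 in TRPM2-KD than in Control. Nkd2 over Znrf3 was 2.0 in TRPM2-KD and 1.11 in Control, and the quotient of these was 1.80 (1.41 to 2.29). Nkd1 over Znrf3 was 6.43 in TRPM2-KD and 4.44 in Control, with a quotient of 1.45 (1.2 to 1.75). Nkd2 over Nkd1 was 0.310 in TRPM2-KD and 0.250 in Control, with a quotient of 1.24 whose interval, 1.02 to 1.51, ended close to 1. Rnf43, the relative of Znrf3, had only 25 reads in TRPM2-KD and 27 in Control, a ratio of 1.17 with an interval from 0.650 to 2.09.

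Proteins that work with these inhibitors were near 1 as a list. Of 23 listed genes 18 were measured, 8 above 1 and 10 below, with a median log2 ratio of -0.02. At 1.2-fold 1 gene was higher and 1 lower, where 17.4% and 16.5% of all genes were. Lgr4, an R-spondin receptor that shields Frizzled from Znrf3, was at 3.39 RPKM in TRPM2-KD and 2.52 RPKM in Control, a ratio of 1.34 (1.17 to 1.55). The Dishevelled gene Dvl2 was at 10.8 RPKM in TRPM2-KD and 13.3 RPKM in Control, a ratio of 0.813 (0.760 to 0.869). Dact3, an antagonist of Dishevelled, was at 0.835 (0.756 to 0.921), and Ppp2r3a at 1.19 (1.12 to 1.27).

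**Figure D4:**
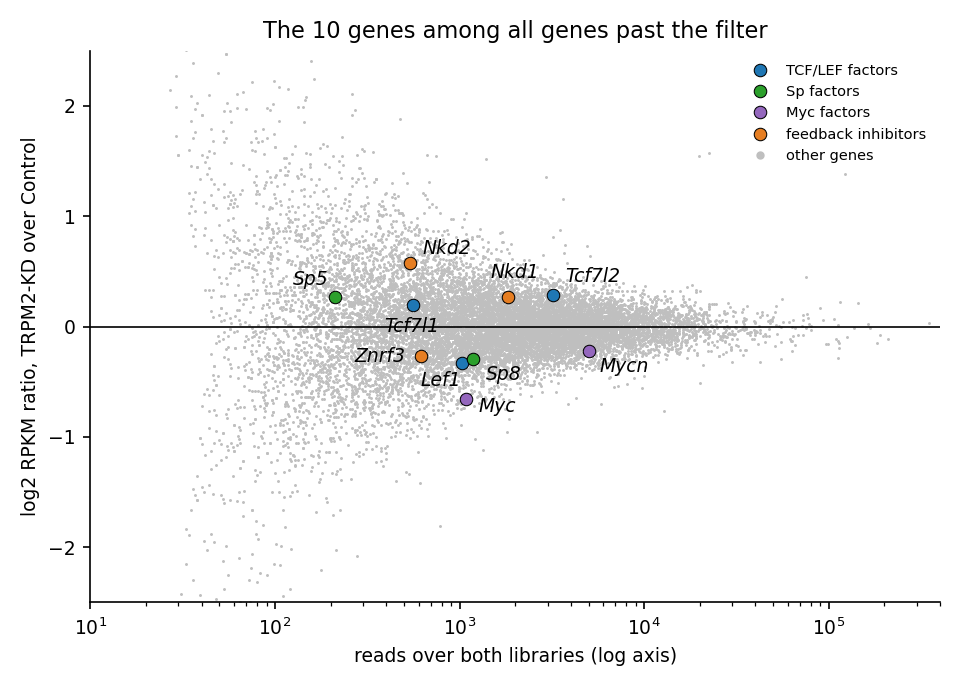
Log2 RPKM ratio, TRPM2-KD over Control, against the reads of each gene over both libraries on a log axis, for the 13968 genes past the filter with reads in both libraries, of which 47 lie beyond the plotted range. The 10 genes are coloured by role, and the spread of the other genes narrows as reads increase.

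The cofactors of TCF/LEF were compared by role. Of the 13 activating partners 8 were above 1 and 5 below, with a median log2 ratio of 0.06. Centred on 10 groups of gene length, that median was -0.009. At 1.2-fold 1 of the 13 was lower and none higher, where 16.5% and 17.4% of all genes were. Beta-catenin itself, Ctnnb1, was at 213 RPKM in TRPM2-KD and 223 RPKM in Control, a ratio of 0.956 (0.939 to 0.972). Pygo2, a chromatin reader that beta-catenin recruits through Bcl9, was at 17.5 RPKM in TRPM2-KD and 21.1 RPKM in Control, a ratio of 0.832 (0.776 to 0.892). Of the 17 genes listed as repressing partners 13 were below 1 and 4 above. The counting interval lay below 1 for 11 of them and above for 2, where 28.4% of all genes lay below and 28% above. At 1.2-fold 2 of the 17 were lower and 1 higher, where 16.5% and 17.4% of all genes were. The median log2 ratio of the 17 was -0.16, against -0.004 for all genes. Centred on groups of gene length, it was -0.13. Ctnnbip1, which blocks beta-catenin from TCF, was at 23.8 RPKM in TRPM2-KD and 28.6 RPKM in Control, a ratio of 0.832 (0.777 to 0.891). Hic1 was at 0.755 (0.60 to 0.948). Sox17, which is also an endothelial factor, was at 1.40 (1.11 to 1.75), the highest of the list. The list holds Tcf4, a helix-loop-helix factor that shares an older name of TCF7L2 and is not known as its partner.

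**Figure D5:**
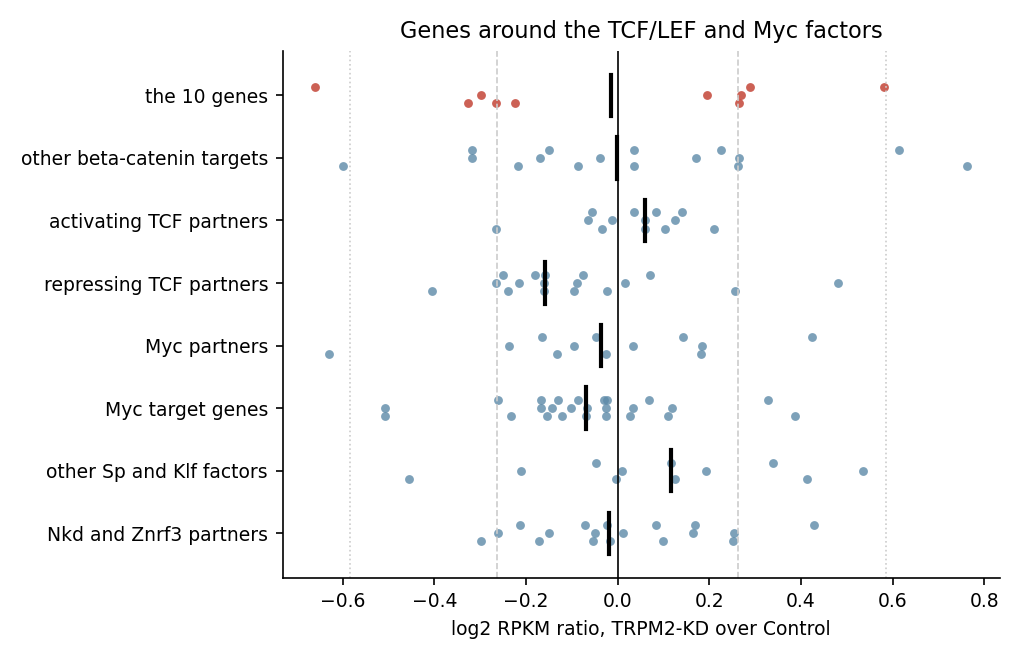
Log2 RPKM ratio, TRPM2-KD over Control, for each measured gene of 7 gene groups and the 10 genes, with a bar at each median and dashed and dotted lines at 1.2-fold and 1.5-fold. The medians lay between -0.16 for the repressing partners and 0.12 for the other Sp and Klf factors.

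Other genes known as beta-catenin targets in some tissue were also split. Of 29 listed genes 16 were measured, 6 were below the filter and 7 had no line under their symbol in the deposited gene table. Of the 16, 8 were above 1 and 8 below, with a median log2 ratio of -0.002. At 1.2-fold 3 were higher and 3 lower, where 17.4% and 16.5% of all genes were. Axin2, the feedback scaffold of the destruction complex, was at 7.72 RPKM in TRPM2-KD and 5.05 RPKM in Control, a ratio of 1.53 (1.39 to 1.69), close to Nkd2. Gbx2, a patterning factor, was at 1.63 RPKM in TRPM2-KD and 0.962 RPKM in Control, a ratio of 1.7 (1.31 to 2.2). It is also one of the thalamus markers, of which 7 of the 8 measured were above 1, and their part in this value was not tested. Neurog1, a proneural factor, was at 0.660 (0.449 to 0.957), with 45 reads in TRPM2-KD and 86 in Control. Kremen1, a Dickkopf receptor, was at 0.802 (0.716 to 0.898). The cyclin gene Ccnd1 was at 0.889 (0.825 to 0.957), on the same side as the Myc genes.

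The ratio moved with gene length and base composition across the transcriptome. In log2 terms the median ratio was -0.07 for the shortest of 10 length groups and 0.09 for the longest. It was 0.07 in the lowest of 10 groups of GC content and -0.10 in the highest. Lef1 and Tcf7l2, at 8.66 and 8.75 kb, lie in the longest group, and relative to its median their ratios were 0.751 and 1.15. Tcf7l1 and Sp5 lie in the highest GC group, with 59.3% and 62.0%, and relative to its median their ratios were 1.23 and 1.29. Relative to its own GC group, Nkd2 was at 1.53. No gene of the 10 changed side of 1 under either adjustment.

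The authors' deposited table gives their own comparison of the 2 libraries. The series' own rule asks for a p-value below 0.05 together with a log2 fold change beyond 1 in size. By it the authors' deposited table calls 3.84% of the 16103 genes and 0 of the 10. The lowest p-value among the 10 in the authors' deposited table was 0.324, for Myc at a log2 fold change of -0.66, and the highest was 0.775, for Tcf7l1. The next lowest was 0.389, for Nkd2 at a log2 fold change of 0.58. Trpm2, not among the 10, had a p-value of 0.657 in the authors' deposited table, at a log2 fold change of -0.30. All 10 adjusted p-values in the authors' deposited table were 1.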

How the data were processed

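RNA from sorted GFP-positive cells was sequenced in 1 TRPM2-KD and 1 Control library. The authors deposited 1 table, with read counts that are whole and not normalised and RPKM values scaled by gene length and library total, per the file headers. The authors' log2 values and p-values, per the file headers, come from their comparison of the libraries. The sources used here do not name its tool. The build mm9 and the tools HTSeq 0.6.0, Bowtie2 2.2.3 and TopHat2 2.0.12 are listed, without roles, per the submitters' processing notes. The ratio is TRPM2-KD over Control, without a pseudocount, with an interval from the Clopper-Pearson limits of the reads' split. The calculation of the interval was tested on simulated independent reads, without PCR copies or differences between embryos. That checks the calculation and not how well the interval suits these libraries. No p-value was computed, since each group has 1 library. Genes averaging 1 RPKM or more formed the background. Alternatives were edgeR 4.0.16 and DESeq2 1.42.0 scaling, other library totals, pseudocounts, filters, and centring on length or GC groups. GC content came from GENCODE M21, for 98.9% of these genes, and promoters from RefSeq. M21 and RefSeq belong to a later build than mm9. Python 3.11.15 with scipy 1.17.1 was used. Genes named beside the 10 are Trpm2, Ctnnb1, Tcf7, Axin2, Rnf43, Ccnd1 and up to 4 of each of 6 lists with the largest absolute log2 ratio. Others, such as Sp9, were chosen after their values were seen. The 10 genes and all lists were chosen with earlier results of these data known. No search for genes of a like pattern was made, since 2 libraries give 1 ratio.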

Additional observations from a re-analysis of the deposited data

How the results depend on the processing

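With 1 library per group, no replicate could be left out. No paired analysis was possible because the groups share only 1 replicate number and no test was run. All 80 recomputed ratios of the 10 genes stayed on the same side of 1 and within the counting interval. The other scalings moved every log2 ratio by at most 0.002. Myc ranged between 0.633 and 0.666, Lef1 between 0.751 and 0.851, and Nkd2 between 1.33 and 1.53. The counts past a fold depend on the settings because several genes lie near 1.2-fold. On the log2(RPKM + 1) scale, which understates the difference of low genes, 1 gene was at least 1.2-fold higher and 1 lower, where 13.7% and 13.1% of all genes were. A mean RPKM of 5 or more keeps 5 of the 10 genes. Of these, 2 were higher and 2 lower at 1.2-fold, where 10.4% and 12.1% of all genes were. Counting intervals lay below 1 for 3 of the 5. The share of all genes with such intervals was not computed at this filter, so that count has nothing to be read against. Centred on groups of GC content, an alternative chosen after the data were seen, 1 gene (Nkd2) was at least 1.5-fold higher, where 6.23% of all genes were. The other 46 recomputed counts stayed within 1.5 times, and all 80 recomputed list medians moved by less than 0.1. Most of the list medians were themselves smaller than 0.1 in size, so this limit is loose, and some changed sign. Centred on length groups, the activating partners went from 0.06 to -0.009 and the other beta-catenin targets from -0.002 to 0.03. Centred on GC groups, the Myc partners went from -0.04 to 0.01. Depth limits Sp5 most, with 211 reads over both libraries.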

Other observations

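Some known beta-catenin targets lay below the expression filter and are given as values, chosen after they were seen. Cd44, an adhesion receptor, had 150 reads in TRPM2-KD and 86 in Control, a ratio of 2.2 (1.68 to 2.90). Lgr5, an R-spondin receptor, had 13 reads in TRPM2-KD and 42 in Control, a ratio of 0.390 (0.192 to 0.741). Notum, a secreted enzyme that inactivates Wnt proteins, had 44 reads in TRPM2-KD and 35 in Control, a ratio of 1.58 with an interval from 0.994 to 2.54.

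Genes that pattern the medial and dorsal forebrain, where Lef1 is known to act, were not uniform. Emx1, a marker of the dorsal pallium, was at 18.1 RPKM in TRPM2-KD and 25.9 RPKM in Control, a ratio of 0.699 (0.642 to 0.762). Dmrt3 was at 0.590, Msx1 at 0.696 and Bmp4 at 0.694, all with intervals below 1. Lhx9, which is also on the list of thalamus markers, went the other way, at 6.66 RPKM in TRPM2-KD and 4.15 RPKM in Control, a ratio of 1.60 (1.46 to 1.77), and Wnt5a was at 1.29 (1.16 to 1.44). Others lay near 1, with Lhx2 at 0.994, Lmx1a at 1.03, Rspo3 at 0.966 and Wnt2b at 1.09, all with intervals that include 1. Gdf7, a signal of the dorsal midline that lay below the expression filter, had 3 reads in TRPM2-KD and 27 in Control. Its ratio was 0.140 (0.0272 to 0.455). The other genes of this list below the filter were Rspo1 at 0.490, Wnt8b at 0.656 and Wnt3a at 0.681. The interval of Wnt3a included 1.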
